A study of Mus musculus with 7 samples.

Results

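Of the 4 arrays of mouse embryonic fibroblasts (MEF), the one titled replicate 1 was compared with the arrays of replicates 2, 3 and 4. Replicate 1 was selected on these same values, because its genes of cell proliferation were low and its level of Cdkn2a was high. Every difference given here is therefore a description of 1 array beside 3, and none was tested. All 18194 genes that the annotation of the array names with 1 symbol were read, each by 1 of the 45101 probe sets, the one with the highest mean over the 7 arrays of the study. A gene was called higher or lower where replicate 1 stood at least 2-fold (1 log2 unit) above or below the mean of replicates 2 to 4.

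The study set MEF beside induced hepatic stem cells (iHepSC) and primary hepatocytes (pHep), all labelled as strain C57BL/6. The MEF were fibroblasts grown out of embryos whose heads and inner organs had been taken away, kept in DMEM with serum and given no virus. The iHepSC, 1 array at passage 3 and 1 at passage 20, had been made from such fibroblasts with lentivirus carrying Oct4 and Hnf4alpha and grown in HEP medium, and the study's detailed work used 1 clone, iHepSC-C3, though the labels of these arrays name no clone. The pHep array holds hepatocytes freed by collagenase from livers of C57BL/6J mice 6 weeks old. No source used here gives the passage of the MEF, the number of embryos or whether the 4 replicates were separate cultures, so the spread between them may be technical.

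Primary MEF divide for a limited number of passages and then enter senescence, a lasting stop of the cell cycle in large, flat, living cells. The Cdkn2a locus is a main brake in this process. It encodes p16Ink4a, which keeps the cyclin D kinases from acting on the retinoblastoma protein, and, from another start and reading frame, p19Arf, which shields p53 from Mdm2. Senescent fibroblasts are known for silent E2F and mitotic genes, a swollen lysosomal compartment, remodelled matrix and a secretion of growth factor binding proteins, proteases and cytokines. Fibroblasts also keep the Hox code of the body site they came from, so that cultures from different parts of an embryo can differ in it.

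Before the genes, the control probe sets of the arrays have to be set side by side, because they too set replicate 1 apart from the other MEF arrays. Replicate 1 had a mean level of 10.63 over the hybridisation spikes (bacterial and phage transcripts added to every hybridisation), against 11.88, 12.03 and 12.00 for replicates 2, 3 and 4, and 10.63, 10.65 and 10.92 for iHepSC at passage 3, at passage 20 and pHep. The spikes added as poly-A RNA read 7.58 on replicate 1, 10.02 to 10.12 on replicates 2 to 4 and 7.64 to 8.16 on the 3 arrays of other cells. The 18S ribosomal RNA probe sets read 12.32, 9.85 to 10.30 and 13.12 to 13.55 in the same order. The 3-prime probe set of pyruvate carboxylase exceeded the 5-prime one by 2.21 log2 units on replicate 1, by 0.47 to 0.69 on replicates 2 to 4 and by 2.45 to 3.29 on the other arrays. For Gapdh this difference was -0.03 on replicate 1, -0.24 to -0.23 on replicates 2 to 4 and -0.10 to 0.07 on the other arrays. For the transferrin receptor it was 0.90, 1.17 to 1.49 and 0.84 to 1.10 in the same order. For Actb it was 0.25 on replicate 1 and 0.14 to 0.22 on replicates 2 to 4, and 0.31 to 0.37 on the other arrays. By the spikes, 18S, pyruvate carboxylase and Gapdh, replicate 1 stood with the iHepSC and pHep arrays, and replicates 2 to 4 stood by themselves. The transferrin receptor divided the arrays the same way, though replicate 3 (1.17) was close to iHepSC at passage 3 (1.10). By Actb replicate 1 was nearest to replicate 3. No MEF array but replicate 1 had such readings, so a difference in the cells and a difference in the handling of RNA and arrays cannot be told apart.

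**Figure D1:**
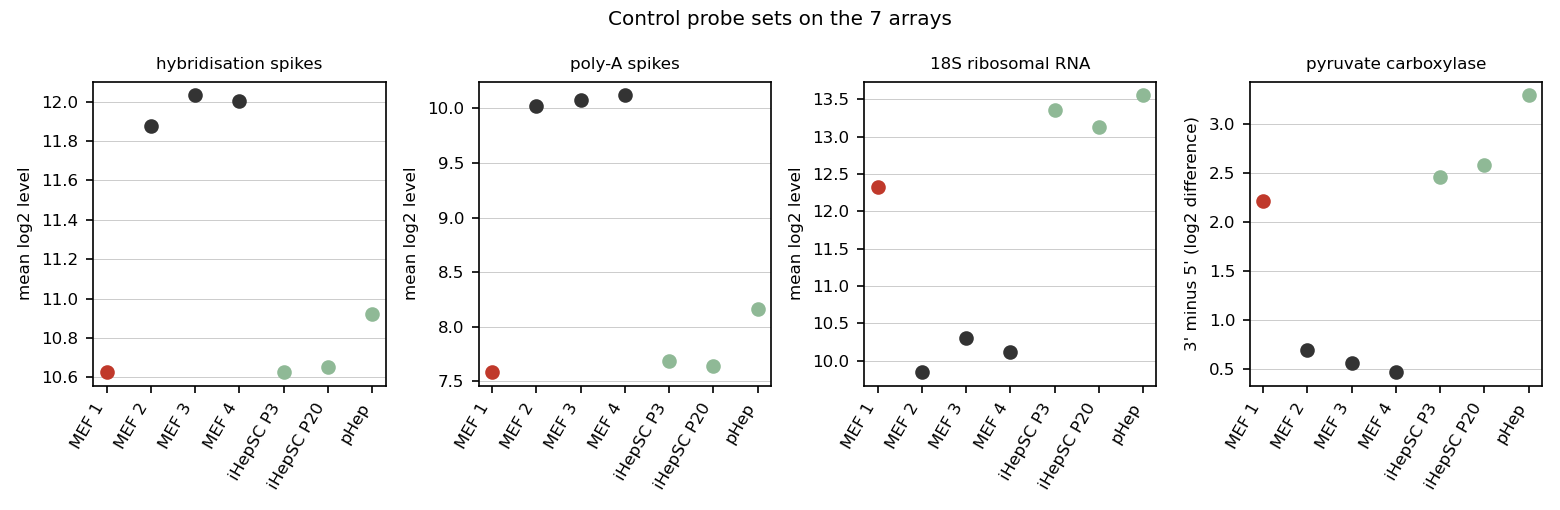
Readings of the Affymetrix control probe sets on the 7 arrays (red, MEF replicate 1; black, MEF replicates 2 to 4; green, iHepSC at passage 3 and 20 and pHep). The first 3 panels give mean log2 levels, and the last gives the 3-prime minus the 5-prime probe set of pyruvate carboxylase in log2 units. In each panel replicate 1 lies on the side of the green points, with 10.63 against 11.88 to 12.03 for the hybridisation spikes.

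To mark genes that divided the arrays like the spikes, those whose levels on replicates 2 to 4 all stood at least 2-fold above, or all at least 2-fold below, each of the other 4 arrays were counted. They made up 320 of the 1503 genes called higher on replicate 1 and 278 of the 679 called lower. The other 4 arrays hold 3 kinds of cells, and what part of these counts is cells and what part is handling was not tested. Below, such genes are said to have followed the spikes. A gene called higher can do so only if the iHepSC and pHep arrays also stood at least 2-fold above replicates 2 to 4. One called lower can do so only if those arrays also stood at least 2-fold below. For genes that are low, or high, in those cells for their own reasons, not following the spikes therefore says nothing about handling.

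Over all 18194 genes, 1503 (8.26%) stood at least 2-fold higher on replicate 1 and 679 (3.73%) at least 2-fold lower. At least 4-fold differences were seen for 197 genes upward and 189 downward. Every one of the 2182 called genes lay outside the range of replicates 2 to 4, which were close to each other, with a median SD of 0.0913 and only 20 genes spanning 2-fold or more. Lying outside this narrow range was common: 13990 of all 18194 genes did, 8653 above it and 5337 below. Of the sum of squares among the 4 MEF arrays, 90.9% lay between replicate 1 and the mean of the others. The median difference over all genes was 0.08. Gapdh, a glycolytic enzyme often taken as reference, was lower on replicate 1, at 14.07 against 14.58, 14.57 and 14.54. Actb was at 14.97 against 15.06, 15.17 and 15.15 on its brightest probe set. Of its 5 probe sets, 1 was at 13.61 on replicate 1 against 10.47, 10.36 and 10.68 (3.11). That probe set read 13.50 to 13.74 on the iHepSC and pHep arrays, and so divided the arrays like the spikes. The rest differed by -0.22 to -0.14. With arrays set equal on Gapdh, all differences move up by 0.50, and 3837 genes would be called higher and 329 lower.

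The probe set read for a gene mattered more for the rises than for the falls. Of the genes called higher, 921 had more than 1 probe set, and in 522 of them all probe sets pointed the same way. Of the genes called lower, 431 had several, and 329 pointed 1 way throughout. When the probe sets of each gene were averaged instead, 975 genes were called higher and 665 lower. Single genes were checked on that average only where they were among the 138 named by a fixed rule. Of these, Col12a1, H2-K1, Has2, Hoxc6, Map1b, Mt1, Myh9, Pfkl, Ptx3, Rb1, Rbl1, Rgs5, Rian, Sel1l, Tapbp and Tnfaip2, all named as called below, were not called on it. Other called genes named below, such as Mdm2, Glb1 and Relb, were not checked in this way. Among genes called higher with several probe sets, all pointed the same way in 0 of 2 p53 targets, 2 of 6 secreted factors and 6 of 6 lysosomal genes. Pointing the same way is a matter of sign alone. All probe sets were past 2-fold in 0, 1 and 1 of these genes. The same held for 129 of the 921 genes called higher and 121 of the 431 called lower.

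**Figure D2:**
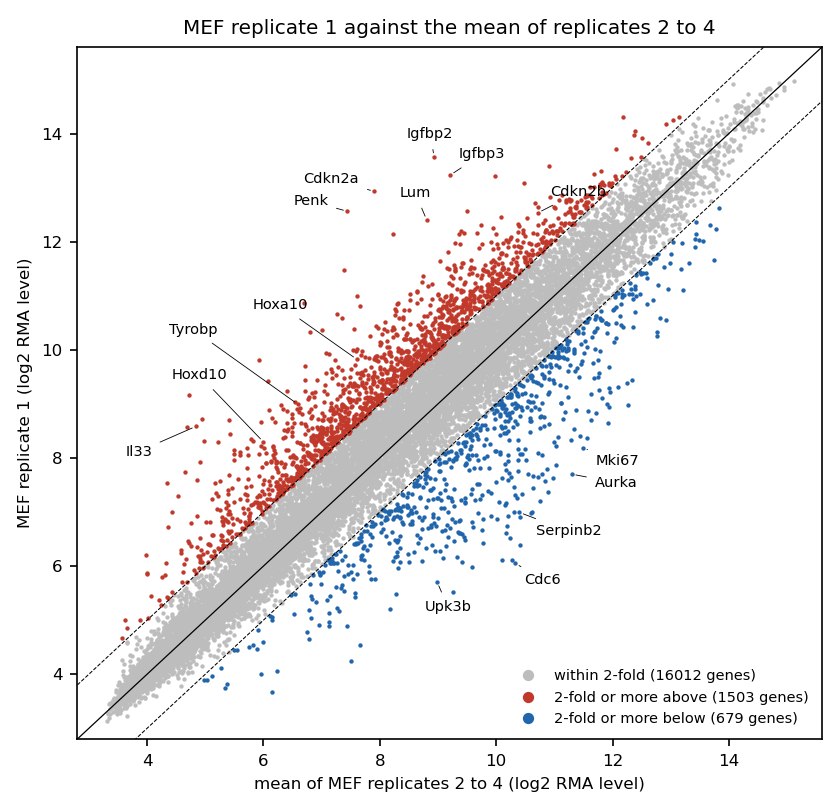
Log2 level of each of 18194 genes on MEF replicate 1 (vertical) against the mean of MEF replicates 2 to 4 (horizontal). Dashed lines mark 2-fold differences; 1503 genes lie above them (red) and 679 below (blue), with Cdkn2a and Penk farthest above and Cdc6 farthest below among the genes labelled.

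The cell cycle inhibitors were led by Cdkn2a. Its level was 12.93 on replicate 1 and 8.03, 7.94 and 7.75 on replicates 2, 3 and 4, a difference of 5.02 (32.5-fold) beside an SD of 0.14. The iHepSC arrays had 7.95 and 7.72 and the pHep array 9.13, so that replicate 1 stood apart from all 6 other arrays. Only 1 probe set on the array reads Cdkn2a, and it cannot tell the transcripts of p16Ink4a and p19Arf apart. Cdkn2b, the neighbouring gene for the related inhibitor p15Ink4b, was at 12.53 against 10.76, 10.77 and 10.62 (a difference of 1.82). Cdkn1a, the p53 target p21, was at 14.09 against 13.12, 13.16 and 13.12, a difference of 0.95 that missed 2-fold on its brightest probe set and was 2.32 on the other. Cdkn1c (p57) differed by 0.75, Cdkn2c (p18) by 0.32, Cdkn1b (p27) by -0.01 and Cdkn2d (p19Ink4d) by -0.48. Thus 2 of the 7 inhibitors were called higher and 0 lower, and neither followed the spikes.

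On chromosome 4 (GRCm38.p6) Cdkn2a and Cdkn2b lie next to each other, and Mtap lies on the other side of Cdkn2a. Mtap, an enzyme of methionine salvage, was at 12.43 on replicate 1 and at 12.68, 12.56 and 12.59 on the others (a difference of -0.18), within 2-fold. Of the 17 measured genes with a start within 1000000 bases of that of Cdkn2a, the third one called was Ifnz, at 8.49 against 7.23, 7.15 and 7.10. The interferon alpha genes measured in the stretch were not called. Over the chromosomes, the median difference of genes with a mean MEF level of at least 6 ran from 0.08 on chromosome 13 to 0.19 on the X chromosome, with 9.17% to 13.7% of genes called higher on each and 4.31% to 6.08% called lower.

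The upstream sequences of both starts of Cdkn2a are shown because they belong to the 2 transcripts that the probe set joins, and those of Cdkn2b and Mki67 because they set the neighbour and the division marker beside them. Each holds the 120 bases before the start in RefSeq's models on GRCm38.p6, written 5′ to 3′ along the gene. Capitals mark matches, on either strand, to the letters of 5 motifs: CCAAT, the CHR of mitotic genes (TTTGAA), an E2F site (TTCCCGC), an AP-1 site (TGACTCA) and an NF-kB site (GGGACTTTC). Overlaps between motifs were not removed.
Cdkn2a, upstream start, chr4:89294620-89294739, minus strand: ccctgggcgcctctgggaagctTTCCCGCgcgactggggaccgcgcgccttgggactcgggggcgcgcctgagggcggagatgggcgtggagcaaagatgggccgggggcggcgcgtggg
Cdkn2a, downstream start, chr4:89282193-89282312, minus strand: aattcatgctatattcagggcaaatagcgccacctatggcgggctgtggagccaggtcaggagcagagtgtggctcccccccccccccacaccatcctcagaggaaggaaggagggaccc
Cdkn2b, chr4:89311033-89311152, minus strand: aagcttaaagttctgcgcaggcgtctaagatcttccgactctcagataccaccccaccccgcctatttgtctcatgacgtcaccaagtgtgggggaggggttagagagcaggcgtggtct
Mki67, chr7:135716380-135716499, minus strand: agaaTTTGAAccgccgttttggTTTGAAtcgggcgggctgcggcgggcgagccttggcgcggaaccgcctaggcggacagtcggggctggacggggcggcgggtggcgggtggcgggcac
In these windows the upstream start of Cdkn2a holds the E2F letters and the downstream start no match, Cdkn2b holds none, and Mki67 holds the CHR letters at 2 places. A match is a description of letters, not of a bound factor.

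Genes of cell division were lower nearly throughout. Of 47 measured genes of G2 and M phase, 45 were called lower on replicate 1 and 0 higher, beside 3.73% and 8.26% of all genes. Their median difference was -2.86. All 47 lay below the range of replicates 2 to 4, beside 5337 of all 18194 genes. Mki67, whose protein coats the chromosomes of dividing cells, was at 8.18 on replicate 1 and at 11.55, 11.36 and 11.57 on the others, a difference of -3.31. The mitotic kinase Aurka was at 7.70 against 11.38, 11.26 and 11.26 (-3.60), Melk at 6.62 against 10.29, 10.07 and 10.17 (-3.56) and the checkpoint kinase Ttk at 6.74 against 10.23, 10.16 and 10.17 (-3.45). All of these were lower on replicate 1 than on any of replicates 2 to 4, with no overlap, though the dimmer probe set of Aurka differed by -0.10 alone. The 2 genes within 2-fold were the phosphatase Cdc25b (-0.96) and the transcription factor Foxm1 (-0.87). The median level of the list was 7.62 on replicate 1, 10.59 to 10.64 on replicates 2 to 4, 9.11 and 8.17 on the iHepSC arrays and 7.40 on pHep, so that replicate 1 was nearest to the pHep array, whose cells had been taken from adult liver. Of the 45 genes, 32 followed the spikes.

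Genes of DNA replication moved the same way with more exceptions. Of 40 measured S phase genes, 35 were called lower and 0 higher, beside 3.73% and 8.26% of all genes, and their median was -1.94. Cdc6, which loads the replicative helicase, showed the farthest fall of all genes, from 10.37, 10.21 and 10.41 to 6.05 (-4.28). Cyclin E2 (Ccne2) was at 7.37 against 10.84, 10.86 and 10.95 (-3.51), and Mcm5, a subunit of the helicase, at 8.65 against 11.90, 11.85 and 12.02 (-3.27). The exceptions were Orc1 (-0.71), cyclin E1 (Ccne1, -0.43), E2f1 (0.12), Dut (0.19) and E2f2 (0.25). Of the E2F factors in the list, E2f1 and E2f2 thus stayed within 2-fold, and E2f8, a repressor of the family, was called lower (-1.96). Of the 35 genes, 15 followed the spikes.

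The G1 regulators had no common direction. Cyclin D2 (Ccnd2) was higher, at 14.24 against 13.03, 13.03 and 13.06, and so was Rb1, the retinoblastoma gene, at 10.73 against 9.11, 9.27 and 9.18, with a difference of 0.37 on its other probe set. Its relative Rbl1 (p107) was lower, at 7.94 against 9.25, 9.27 and 9.24, with differences from -1.41 to -0.09 over its 4 probe sets. The other 9 of the 12 genes were not called, so that 2 were higher and 1 lower, beside 8.26% and 3.73% of all genes. Cyclin D1 (Ccnd1) differed by 0.17, Cdk4 by 0.06 and Myc by -0.31.

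Of 8 measured genes for nuclear proteins known to be low in senescent cells, 5 were called lower and 0 higher. Of all genes, 3.73% were called lower and 8.26% higher. The chromatin protein Hmgb2 was at 8.71 against 11.61, 11.56 and 11.70 (-2.92), Hells, a helicase of chromatin, at 8.10 against 10.82, 10.63 and 10.70 (-2.62) and Hmgb3 at 7.95 against 10.63, 10.35 and 10.55 (-2.55). The Polycomb enzyme Ezh2 differed by -2.07 and the lamin B receptor Lbr by -1.36. Lmnb1, the lamin whose loss is widely used as a mark of senescence, differed by -0.83 and was not called. None of the 5 followed the spikes. On the iHepSC arrays Hmgb2 was at 10.77 and 10.22 and Ezh2 at 10.12 and 9.81, between replicate 1 and the other MEF.

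Members of the division lists share sequence as well as direction. Promoter windows were RefSeq's stretches around each start, most of each lying before it. Of 42 windows found for 40 of the G2 and M phase genes, 66.7% held TTTGAA and 73.8% held CCAAT, beside 13.4% and 37.4% of the 18010 windows of all genes. Of 42 windows for 34 of the S phase genes, 33.3% held TTCCCGC and 59.5% CCAAT, beside 6.72% for TTCCCGC in all windows. Over all genes called lower, 24.5% of 652 windows held TTTGAA and 16.6% held TTCCCGC; over those called higher, 8.94% and 5.98% of 1588 did. These shares describe the lists and were not tested. The windows of Cdk1, Cdc20 and Ube2c show the CCAAT letters and the CHR together, on 1 strand or the other. Ccnb2 holds CCAAT at 3 places, and Mcm5 stands for the S phase genes with CCAAT alone.
Cdk1, chr10:69352913-69353032, minus strand: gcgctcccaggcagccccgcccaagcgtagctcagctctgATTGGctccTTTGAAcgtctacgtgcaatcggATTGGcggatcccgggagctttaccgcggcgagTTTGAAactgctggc
Cdc20, chr4:118437344-118437463, minus strand: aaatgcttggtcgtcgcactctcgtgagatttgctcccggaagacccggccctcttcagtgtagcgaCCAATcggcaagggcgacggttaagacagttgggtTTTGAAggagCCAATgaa
Ube2c, chr2:164769809-164769928, plus strand: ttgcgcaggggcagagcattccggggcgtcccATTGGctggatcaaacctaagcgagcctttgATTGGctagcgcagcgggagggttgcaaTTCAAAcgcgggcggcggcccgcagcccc
Ccnb2, chr9:70421555-70421674, minus strand: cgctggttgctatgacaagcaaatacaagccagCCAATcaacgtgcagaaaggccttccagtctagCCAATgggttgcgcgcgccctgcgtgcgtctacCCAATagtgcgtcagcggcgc
Mcm5, chr8:75109389-75109508, plus strand: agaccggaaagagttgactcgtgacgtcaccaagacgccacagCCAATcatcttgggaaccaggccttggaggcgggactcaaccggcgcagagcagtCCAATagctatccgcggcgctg
On replicate 1 these genes differed by -2.64 (Cdk1), -2.21 (Cdc20), -2.91 (Ube2c), -2.72 (Ccnb2) and -3.27 (Mcm5) log2 units.

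**Figure D3:**
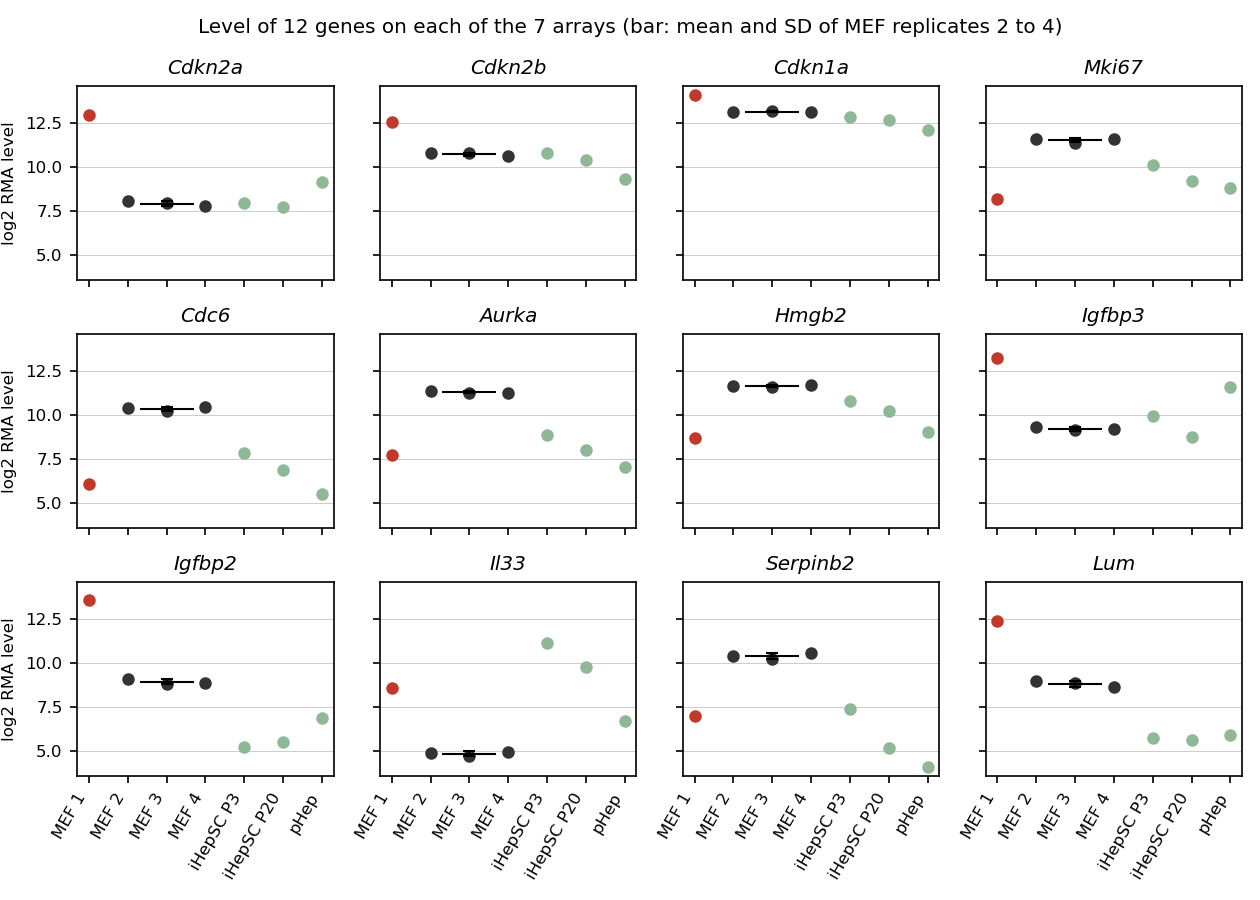
Log2 RMA level of 12 genes on each of the 7 arrays (red, MEF replicate 1; black, replicates 2 to 4 with their mean and SD; green, iHepSC at passage 3 and 20 and pHep). Cdkn2a reached 12.93 on replicate 1 only, whereas the low levels of Cdc6, Aurka and Mki67 there were nearer to those of the iHepSC and pHep arrays.

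Targets of p53 stood higher as a group, with about as many called as not. Of 25 measured genes, 11 were called higher and 0 lower, beside 8.26% and 3.73% of all genes. Their median was 0.65, beside 0.08 over all genes. Pmaip1 (Noxa), a trigger of apoptosis, was at 10.81 on replicate 1 and at 7.65, 7.75 and 7.56 on the others (3.16). Gadd45a, a stress protein of the DNA damage response, was at 10.44 against 7.96, 7.97 and 7.89 (2.50), and Perp, a membrane protein of cell junctions, at 11.33 against 9.28, 9.46 and 9.40 (1.95). Mdm2, the ligase that removes p53, differed by 1.09 and Bbc3 (Puma) by 1.14. Ccng1 (0.19), Sesn1 (0.27) and Ddb2 (0.34) were among the 14 that were not called. Pmaip1, Gadd45a and Perp were at 9.69 to 12.46 on the iHepSC and pHep arrays and were 3 of the 5 genes of the 11 that followed the spikes. Trp53 itself was not analysed here.

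Lysosomal genes differed by small amounts in 1 direction. Of 34 measured, 14 were called higher and 0 lower, beside 8.26% and 3.73% of all genes, and their median was 0.82. Above the range of replicates 2 to 4 lay 31 of them, beside 8653 of all 18194 genes. Glb1, the beta-galactosidase whose activity is stained as a mark of senescence, differed by 1.42. The cathepsins F and O were at 9.57 against 7.31, 7.09 and 6.83 (Ctsf, 2.50) and at 9.34 against 7.65, 7.74 and 7.50 (Ctso, 1.71). Cathepsin S (Ctss), an enzyme abundant in macrophages, was at 11.52 against 9.38, 9.15 and 8.95 (2.36). Tfeb, a regulator of lysosomal genes, differed by 0.06 and Sqstm1, an adaptor of autophagy, by 0.03. Of the 14 genes, 6 followed the spikes.

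Markers of macrophages moved with these genes. All 13 of the markers measured lay above the range of replicates 2 to 4, beside 8653 of all 18194 genes. Of the 13, 9 were called higher and 0 lower, beside 8.26% and 3.73% of all genes, and their median difference was 1.33. Tyrobp, a signalling adaptor of myeloid cells, was at 8.99 against 6.70, 6.60 and 6.49, lysozyme (Lyz2) at 11.95 against 9.91, 9.76 and 9.60, and C1qc, a chain of complement C1q, at 8.14 against 6.29, 6.16 and 6.11. The pan-leukocyte gene Ptprc differed by 1.52 and Csf1r by 0.78, whereas Adgre1, a surface receptor of macrophages, differed by 0.19. Summed on the linear scale, the markers gave log2 values of 12.90 on replicate 1 and 11.18 to 11.39 on the others, and 11 of them reached a level of 6 on replicate 1 against 9 or 10. Their part in the lysosomal and inflammatory differences was not tested. In bulk RNA of this kind, more cells of a type and more RNA per cell cannot be told apart. None of the 9 followed the spikes.

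Secreted factors of senescent fibroblasts were mixed. Of 53 measured, 12 were called higher and 4 lower, beside 8.26% and 3.73% of all genes, and their median was 0.41. Binding proteins of insulin-like growth factors led: Igfbp2 was at 13.57 on replicate 1 and at 9.10, 8.82 and 8.88 on the others (4.63), and Igfbp3 at 13.23 against 9.32, 9.12 and 9.18 (4.02). Icam1, an adhesion molecule for leukocytes, was at 9.60 against 7.25, 7.30 and 6.99 (2.41), and Ccl8, a chemokine for monocytes, at 9.37 against 7.19, 7.25 and 7.40 (2.09). In the other direction, the protease inhibitor Serpinb2 (PAI-2) was at 6.99 against 10.41, 10.22 and 10.56 (-3.40), Igfbp6 at 8.11 against 10.14, 10.08 and 9.96 (-1.96) and the growth factor Fgf7 at 9.76 against 11.71, 11.68 and 11.58 (-1.90). The cytokines best known from human senescent cells were not called: Il6 differed by 0.63, Il1a by -0.08, Il1b by -0.12, Cxcl1 by -0.72 and Ccl2 by -0.11. The matrix protease Mmp3 (0.86) was not called either. The insulin-like growth factor system as a list had 4 genes higher and 1 lower of 12, beside 8.26% and 3.73% of all genes. It added Igf2r, the receptor that clears IGF2, at 12.14 against 9.97, 10.05 and 9.97, to 3 binding proteins already counted, Igfbp2, Igfbp3 and Igfbp7 (1.21), while Igf2 (0.19) and Igf1r (0.56) were not called. Of the 12 secreted factors called higher, 2 followed the spikes, and of the 4 lower, 3 did. In the insulin-like growth factor list, Igf2r, Igfbp7 and the lower Igfbp6 did.

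Inflammatory genes had single large differences on an even ground. Of 35 measured genes of NF-kB signalling and innate inflammation, 7 were called higher and 2 lower, beside 8.26% and 3.73% of all genes. Their median was 0.19. The alarmin Il33 was at 8.58 on replicate 1 and at 4.89, 4.69 and 4.95 on the others (3.74), and the pattern receptor Ptx3 at 12.77 against 11.29, 11.30 and 11.28 (1.48). The NF-kB subunits Relb (1.25) and Rela (1.16) were called, and the feedback inhibitors Tnfaip3 (-0.87) and Nfkbia (-0.60) were not. Tslp, an epithelial type of cytokine, was at 5.75 against 7.82, 7.38 and 7.41, and Tnfaip2 at 10.11 against 11.50, 11.47 and 11.38. Of the 7 higher, 4 followed the spikes, as did both lower, and Il33 was among them, with 11.15 and 9.76 on the iHepSC arrays.

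Of 40 chemokines and receptors, 6 were called higher and 1 lower, beside 8.26% and 3.73% of all genes, and 1 of the 6 and the 1 lower followed the spikes. Cxcl14 was at 12.57 against 9.71, 9.39 and 9.42 (3.07), and Cxcr6, a receptor of T cells and other lymphocytes, at 8.74 against 6.44, 5.71 and 6.30 (2.59). Cxcl3, a chemokine for neutrophils, was at 3.74 against 5.69, 4.95 and 5.39, all of them dim. Interferon response genes did not differ in 1 direction, with 0 of 36 called higher and 1 lower (Ifi204, 7.09 against 8.19, 8.32 and 8.43) and a median of 0.03. Of 16 antigen presentation genes, 3 were called higher and 0 lower, beside 8.26% and 3.73% of all genes. The 3 were Tapbp (1.83), H2-K1 (1.23) and Tap2 (1.21), and the first 2 followed the spikes. The other probe set of Tapbp differed by -0.09, and the other 3 of H2-K1 by 1.04, 0.40 and -0.18. Of 14 complement genes, 2 were called higher, Cd59a (1.47) and C1ra (1.43), and 0 lower, beside 8.26% and 3.73% of all genes. Of the 2, C1ra followed the spikes. The promoter windows of the secreted factors held the AP-1 letters TGACTCA in 24.4% of 45, beside 4.52% of all windows. The NF-kB letters GGGACTTTC were in 1 of the 45 (2.22%), beside 0.39%. Over all genes called higher, the shares were 4.22% for AP-1 and 0.13% for NF-kB, not above those of all windows. Of 36 windows of the chemokine list, 4 held the AP-1 letters and 0 the NF-kB letters. A window of Igfbp2 is shown for its AP-1 letters (TGAGTCA on the other strand), before which it also holds TTTGAA.
Igfbp2, downstream start, chr1:72825267-72825386, plus strand: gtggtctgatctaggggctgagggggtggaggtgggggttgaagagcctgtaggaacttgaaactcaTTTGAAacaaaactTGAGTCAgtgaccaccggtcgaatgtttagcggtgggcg
The other start of Igfbp2 holds none of the 5 motifs in its 120 bases.

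**Figure D4:**
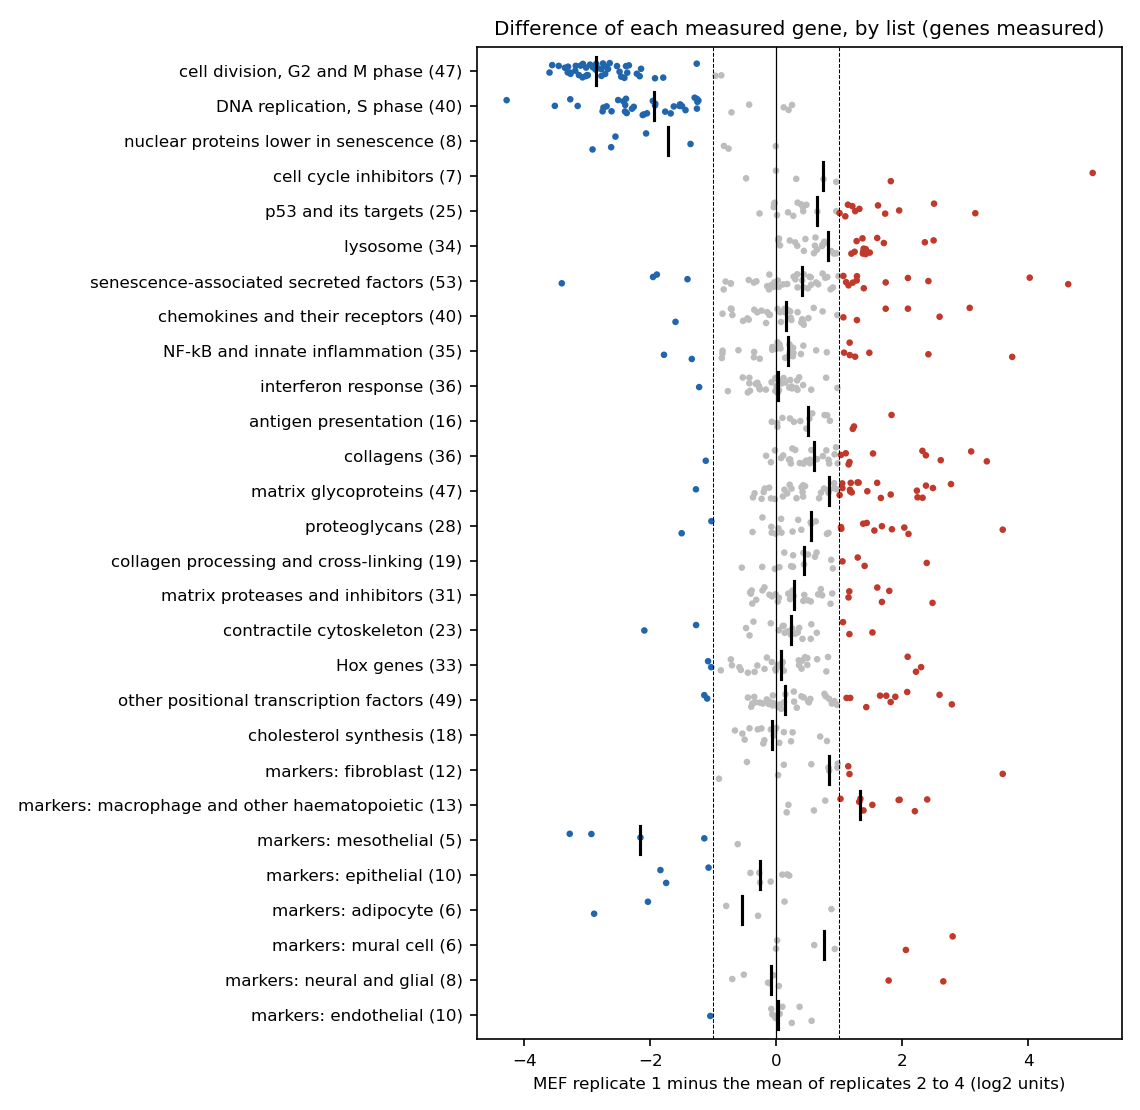
Difference of MEF replicate 1 from the mean of replicates 2 to 4 (log2 units) for each measured gene of the lists named at the left, with the number of genes measured in parentheses; bars mark medians, dashed lines 2-fold, red and blue genes called higher and lower. The 2 division lists lie almost wholly to the left, at medians of -2.86 and -1.94, and the macrophage markers to the right, at 1.33.

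Matrix genes stood higher across several classes. Of 36 collagens, 10 were called higher and 1 lower, beside 8.26% and 3.73% of all genes, and their median was 0.60. Above the range of replicates 2 to 4 lay 29 of them, beside 8653 of all 18194 genes. The farthest were not the bulk collagens of fibroblasts. Col10a1, known from cartilage about to turn into bone, was at 9.42 against 6.26, 5.92 and 6.08 (3.34), Col8a2, a short-chain collagen, at 7.74 against 4.77, 4.49 and 4.68 (3.09), and Col12a1, which coats collagen I fibrils, at 13.09 against 10.28, 10.48 and 10.68 (2.61). Col12a1 was not uniform over its 4 probe sets, whose differences ran from -0.29 to 2.61. Col3a1 was at 14.31 against 13.28, 13.03 and 13.13 (1.16), and the chains of collagen I, near the top of the scale, differed by 0.98 (Col1a1) and 0.84 (Col1a2). Col2a1, the collagen of cartilage, was the 1 called lower, at 8.88 against 10.10, 9.91 and 9.99.

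Of 47 matrix glycoproteins, 19 were called higher and 1 lower, beside 8.26% and 3.73% of all genes, and their median was 0.83. Fibrillin 2 (Fbn2), a microfibril protein of the embryo, was at 12.14 against 9.42, 9.11 and 9.55 (2.77), Smoc2, a calcium-binding matricellular protein, at 12.16 against 9.69, 9.73 and 9.61 (2.49), and thrombospondin 2 (Thbs2) at 12.46 against 10.19, 10.04 and 10.03 (2.37). Efemp1 (fibulin 3) was lower, at 10.74 against 11.99, 12.14 and 11.92. Fibronectin (Fn1) differed by 0.83, Sparc by 0.40, Ccn2 by 0.32 and Postn by -0.11.

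Of 28 proteoglycans and related genes, 10 were higher and 2 lower, beside 8.26% and 3.73% of all genes. Lumican (Lum), which spaces collagen fibrils, was at 12.40 against 8.95, 8.85 and 8.62 (3.59). The cell surface glypican Gpc1 was at 11.66 against 9.64, 9.52 and 9.52 (2.10) and agrin (Agrn) at 10.94 against 8.91, 8.89 and 8.91 (2.03). Decorin (Dcn) differed by 0.56 and biglycan (Bgn) by 0.40. Has2, which makes hyaluronan, was at 10.04 against 11.20, 10.90 and 11.11, and Srpx at 7.04 against 8.58, 8.57 and 8.47.

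Of 19 genes that process and cross-link collagen, 4 were called higher and 0 lower, beside 8.26% and 3.73% of all genes. The prolyl hydroxylase P3h3 led (10.64 against 8.24, 8.29 and 8.23), while the oxidase Lox differed by 0.26. Of 31 matrix proteases and their inhibitors, 6 were higher and 0 lower, beside the same shares of all genes. They included the aggrecanase Adamts4 (9.64 against 6.96, 7.35 and 7.17), the gelatinase Mmp2 (12.00 against 10.24, 10.22 and 10.15) and the inhibitor Timp3 (1.60). Of 23 contractile genes, 3 were higher and 2 lower, beside 8.26% and 3.73% of all genes, and both lower, Myh9 and Zyx (-1.27), followed the spikes. Calponin (Cnn1) was at 12.73 against 11.28, 11.13 and 11.20, whereas Acta2, the actin of myofibroblasts, differed by 0.12 and Tagln by 0.36. Myh9, non-muscle myosin, was at 11.66 against 13.66, 13.69 and 13.89, but its 5 probe sets ran from -2.09 to 2.09, and their mean turned the difference to 0.21.

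Few of the matrix genes followed the spikes: 1 of 10 collagens, 2 of 19 glycoproteins, 1 of 10 proteoglycans and 0 of the 4 cross-linking genes and 6 proteases called higher. These counts cannot speak on handling, because many matrix genes are low in the other cells. The median of the glycoproteins was 6.70 and 6.42 on the iHepSC arrays and 7.20 on pHep, against 9.61 to 9.69 on replicates 2 to 4. Of the lower ones Col2a1 and Srpx did, and Efemp1 and Has2 did not.

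Hox genes differed in a few members. Of 33 measured, 3 were called higher and 2 lower, close to 8.26% and 3.73% of all genes. The 3 higher were of posterior paralogue groups, which mark the hind part of the body and the limbs. Hoxd10 was at 8.30 on replicate 1 and at 5.92, 5.90 and 6.17 on the others (2.30), Hoxa10 at 9.82 against 7.60, 7.72 and 7.49 (2.22) and Hoxd13 at 10.08 against 8.17, 8.07 and 7.75 (2.08). For Hoxa10 and Hoxd13 the other probe set differed by 0.22 and 0.24. The 2 lower were Hoxc4, at 7.54 against 8.77, 8.51 and 8.59 (-1.08), and Hoxc6, at 7.66 against 8.79, 8.71 and 8.56 (-1.03). With Gapdh set equal, or against the nearest of replicates 2 to 4, neither of these 2 would be called. Without replicate 2, Hoxc6 would not be called either. Groups 9 to 13 had 3 of 14 genes called higher and 0 lower with a median of 0.36, and groups 1 to 8 had 0 of 19 higher and 2 lower with a median of 0.02.

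The genes next to those called did not all follow them. Hoxa9, beside Hoxa10, was at 9.15 against 10.11, 9.94 and 10.03 (-0.88), and Hoxa11 differed by 0.36. Between Hoxd10 and Hoxd13, Hoxd11 (-0.15) and Hoxd12 (-0.01) lay within the range of replicates 2 to 4, both near or under a level of 6. In cluster C, 5 of 7 measured genes lay below that range and 1 above, and in cluster B, 6 of 9 lay above and 2 below. Of all 18194 genes, 8653 lay above it and 5337 below. None of the 5 called Hox genes followed the spikes.

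**Figure D5:**
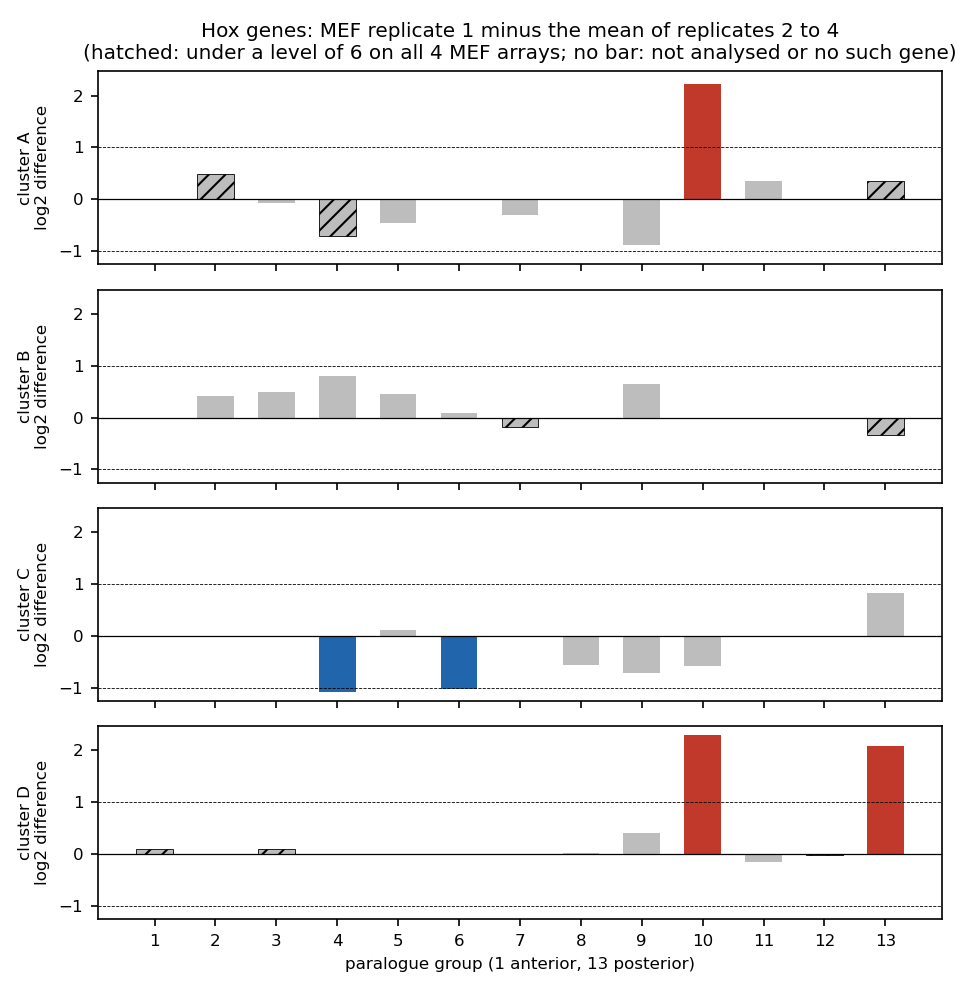
Difference of MEF replicate 1 from the mean of replicates 2 to 4 (log2 units) for 33 Hox genes, by cluster and paralogue group; dashed lines mark 2-fold, red and blue bars genes called higher and lower, and hatching genes under a level of 6 on all 4 MEF arrays. Hoxa10, Hoxd10 and Hoxd13 stand above 2, and 5 of the 7 cluster C genes point down.

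Of 49 measured other transcription factors of body position, 10 were higher and 2 lower, beside 8.26% and 3.73% of all genes, with a median of 0.14. Tbx4, a factor of the hind limb and lung, was at 8.88 against 5.94, 6.15 and 6.19 (2.79), Msx1, of limb bud and face, at 9.82 against 7.25, 7.22 and 7.21 (2.59) and Foxd1, of kidney stroma and other mesenchyme, at 9.47 against 7.30, 7.54 and 7.33 (2.08). Irx5 (1.89), Tbx2 (1.81), Twist1 (1.74) and Irx3 (1.65) were called as well. Tbx5, the factor of the forelimb, differed by -0.12 and Pitx1, of the hind limb, by 0.52. The 2 lower were Twist2, at 9.96 against 11.19, 11.05 and 10.95, and Wt1 (-1.14), also a gene of mesothelium. With Gapdh set equal neither would be called, and Twist2 not against the nearest replicate either. None of the 12 followed the spikes.

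The label of the cells held on all 4 MEF arrays. All 12 fibroblast markers reached a level of 6 on each of them, though some, such as Vim, Fn1 and S100a4, did so on the iHepSC and pHep arrays too. The median of the markers was 13.53 on replicate 1 and 12.44 to 12.51 on replicates 2 to 4. It was 6.08 and 6.22 on the iHepSC arrays and 8.69 on pHep. Vim, the intermediate filament of mesenchyme, differed by 0.03, and Thy1, at 13.08 against 11.99, 11.94 and 11.88, Col3a1 and Lum were called higher. Of the 12, 9 lay above the range of replicates 2 to 4 and 2 below it. The 2 were Pdgfra, at 10.71 against 11.75, 11.56 and 11.55 (-0.91), and Fap (-0.47), neither called. Other cells of the embryo left different traces. Of 5 mesothelial markers (the lining of body cavities), 4 were called lower and 0 higher, beside 3.73% and 8.26% of all genes. Their median was -2.16. Upk3b was at 5.71 on replicate 1 against 9.06, 9.11 and 8.78 (-3.28), Bnc1 at 6.15 against 9.03, 9.18 and 9.05 (-2.93) and Msln at 5.77 against 7.95, 7.99 and 7.84 (-2.16). Only 1 of the 5 reached a level of 6 on replicate 1, against 4 on each other MEF array. Of 10 epithelial markers, 3 were called lower and 0 higher, all of them keratins, with Krt8 at 6.92 against 8.82, 8.69 and 8.75, Krt19 at 7.78 against 9.53, 9.67 and 9.39 and Krt18 at 8.27 against 9.44, 9.19 and 9.41, while the keratins Krt5 (-0.27) and Krt14 (-0.41), Epcam (0.09) and Cdh1 (-0.09), were not called.

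Genes of fat cells were lower in part. Lipoprotein lipase (Lpl) was at 8.83 against 11.71, 11.74 and 11.70 and the fat cell factor Pparg at 7.21 against 9.40, 9.30 and 9.05, whereas Fabp4 differed by 0.87 and Adipoq by -0.80. Of 6 markers of mural cells, 2 were higher, Notch3 at 9.92 against 7.21, 7.08 and 7.06 and Rgs5 at 7.61 against 5.42, 5.73 and 5.51, and of 8 neural markers 2 were, Sox2 at 8.14 against 5.47, 5.30 and 5.70 and Map2 at 11.25 against 9.44, 9.51 and 9.44. The other neural markers were not called, among them Sox10 (-0.05), Tubb3 (-0.13), Nes (0.04), Elavl4 (-0.52) and S100b (-0.70). Of the 8, 3 lay above the range of replicates 2 to 4 and 4 below it, with a median of -0.08. These calls of mural and neural markers stand beside 8.26% of all genes called higher and 3.73% called lower. Endothelial, muscle, cartilage, erythroid, hepatocyte and germ cell lists had at most 1 gene called.

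Beyond the lists, the 15 farthest rises held Penk, the precursor of enkephalins, at 12.56 on replicate 1 and 7.55, 7.20 and 7.58 on the others (5.12, or 34.7-fold), the farthest of all genes. Sbspon, a matrix protein, was at 9.17, a difference of 4.44, the membrane protein Gpm6b at 10.86 against 6.77, 6.71 and 6.61 and the fatty acid binding protein Fabp7 at 11.47 against 7.62, 7.35 and 7.17. Hmcn1, Tmem178 and Kcnj15 were higher by 3.89, 3.78 and 3.88. Map1b was at 10.33 against 6.77, 6.97 and 6.65, but its other probe sets differed by -0.50 and -0.19. Prg4 (lubricin), at 12.14 against 8.26, 8.30 and 8.12, and Map1b followed the spikes, as did Il33, and the other 12 of the 15 did not. Among the 15 farthest falls were Cdc6, Ccne2, Aurka, Melk and Ttk, given above, and other genes of mitosis, such as Ncapg, a condensin subunit (5.52 against 9.35, 9.11 and 9.35), Depdc1a (6.12 against 10.04, 10.09 and 10.18) and Trip13 (6.91 against 10.46, 10.28 and 10.47).

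The farthest falls also held genes that were on none of the division lists. Tfpi2, a secreted inhibitor of proteases, differed by -4.01 from the mean of replicates 2 to 4, which read 10.34, 10.39 and 10.51. Rpl39l, a variant ribosomal protein, was at 6.12 against 10.28, 10.34 and 10.19 (-4.15), Gsdme, a gasdermin, at 7.00 against 10.63, 10.66 and 10.54 (-3.61), and Upk1b, of urothelium and mesothelium, at 6.51 against 10.20, 10.35 and 10.15 (-3.72). Of these 4, Upk1b alone did not follow the spikes, with 11.96 and 12.06 on the iHepSC arrays.

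Transcripts of both sex chromosomes were read on the 4 MEF arrays. Xist, transcribed from the inactive X of female cells, was at 10.99 on replicate 1 and 10.14, 9.77 and 10.09 on the others, and the Y-linked Eif2s3y at 9.72 against 10.09, 10.10 and 9.99. The pHep array had 6.23 for Xist and 10.37 for Eif2s3y. The 3 probe sets of Xist differed by -0.79 to 3.51. Among 22 imprinted genes, 2 were higher and 1 lower, beside 8.26% and 3.73% of all genes: Igf2r, given above, and the noncoding RNA Rian (12.83 against 11.07, 11.14 and 10.57), and Dlk1, a surface protein of embryonic mesenchyme (8.91 against 10.84, 10.70 and 10.65), while Meg3, next to Rian, differed by -0.08. The other 3 probe sets of Rian differed by -0.20, -0.41 and -0.26. Igf2r and Dlk1 followed the spikes, and Rian did not.

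Stress and metabolic genes gave scattered calls, to be set beside 8.26% of all genes called higher and 3.73% called lower. Of 17 genes of the oxidative stress response, 3 were higher, heme oxygenase Hmox1 (12.05 against 10.73, 10.85 and 10.70) and the metallothioneins Mt1 (1.31) and Mt2 (1.35). Of 21 genes of heat shock and the unfolded protein response, 3 were higher, Pdia4 (2.30), Ddit3 (1.59) and Sel1l (1.20), while Hspa5 (-0.21) and Xbp1 (0.01) were not called. The 5 probe sets of Sel1l ran from -1.84 to 1.20, and their mean turned the difference to -0.47. Pdia4 and Mt2 followed the spikes. Among 22 immediate early genes, Fosl1 was the 1 called, at 9.37 against 10.49, 10.41 and 10.28. Of 18 genes of cholesterol synthesis, 0 were called in either direction, and of 17 of glycolysis, 2 were higher (Aldoc, 1.92; Ldhb, 1.31) and 1 lower (Pfkl), with Aldoc following the spikes.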

How the data were processed

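Total RNA of 7 samples was hybridised to Affymetrix mouse whole-genome arrays, 1 array a sample. The authors normalized the arrays by RMA, and the deposited values are log2 levels of 45101 probe sets; the version of RMA is not given in the sources used here. RMA gives all arrays nearly the same distribution, so a general gain or loss of RNA cannot be seen.

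Of the probe sets, 34958 had 1 gene symbol, 932 had several, 9211 had none and 64 were controls; 34754 were matched to RefSeq (GRCm38.p6) by Entrez ID. Each of 18194 genes was read by its brightest probe set, taken over the 7 arrays together. Replicate 1 was set against the mean of MEF replicates 2 to 4, and a difference of at least 1 log2 unit was called. With 1 array on one side no test was run and no p-value is given; the number of arrays limits the precision.

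The comparison, the 29 gene lists and the 14 marker lists were chosen with earlier results of these data known. Named were the 15 farthest genes in each direction that reached a level of 6 on at least 1 MEF array, up to 3 called genes in each direction from each list, all cell cycle inhibitors, every called Hox gene, all sex-linked transcripts, Cdkn2a, Mki67, Gapdh and Actb. Other genes were named after their values were seen, most often to show members of a list that were not called. Alternatives changed the probe set, filter, scaling, reference arrays and the 2-fold floor. Python 3.11.15, numpy 2.4.6 and pandas 2.3.3 were used, and the calculations were tested on simulated data.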

Additional observations from a re-analysis of the deposited data

Results flagged for a closer look

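By Dixon's criterion for 4 samples (the gap to the nearest array as a share of the range), replicate 1 lay apart from the other MEF arrays for 104 of the 138 named genes, which were largely chosen for that, and for the median level of 15 of 43 lists. Since replicate 1 was selected for standing apart on these values, these counts restate that choice and test nothing. For 2 lists it was replicate 2 that lay apart, the pluripotent and germ cell markers (0.923 of the range) and the chemokines and their receptors (0.861). Chance puts about 1 in 20 groups past this limit. Replicate 1 also lay apart in 5 of 11 control and scale readings.

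The control probe sets, which stand outside the gene comparison, carried differences of their own. Replicate 1 minus the mean of replicates 2 to 4 was -1.34 for the hybridisation spikes, -2.49 for the poly-A spikes, 2.23 for 18S ribosomal RNA and 1.64 for the 3-prime minus 5-prime reading of pyruvate carboxylase, all in log2 units. Their part in the gene differences was not tested.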

How the results depend on the processing

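Counts over all genes were 1503 higher and 679 lower. They became 975 and 665 with the mean of all probe sets, 1497 and 694 without probe sets of suffix _x_at and _s_at, 1487 and 673 among genes at a level of 6 on some array, 1311 and 761 after a new quantile normalization, 1590 and 644 with arrays centred on the median, 3837 and 329 with arrays centred on Gapdh (92.1% of calls higher, against 68.9%), and 1196 and 584 against the nearest of replicates 2 to 4. Leaving out 1 of replicates 2 to 4 gave 1469 to 1534 higher and 673 to 686 lower. By list this gave 45 to 46 G2 and M phase genes, 35 S phase genes, 10 to 11 p53 targets, 14 lysosomal genes, 12 to 13 secreted factors, 9 to 10 collagens, 18 to 20 glycoproteins, 9 to 10 proteoglycans, 3 Hox genes, 10 positional factors, 8 to 9 macrophage markers and 4 mesothelial markers.

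A floor of 1.5-fold called 3282 genes higher and 1515 lower, with 25 lysosomal genes, 20 secreted factors, 18 collagens, 6 Hox genes and 16 positional factors higher. A floor of 4-fold called 197 and 189, with 2 macrophage markers, 2 p53 targets, 2 lysosomal genes, 4 secreted factors, 5 collagens, 6 glycoproteins, 3 proteoglycans and 3 positional factors higher and 19 S phase genes lower. Gapdh centring gave 25 lysosomal genes, 23 secreted factors, 21 collagens, 6 Hox genes and 19 positional factors higher. Without the genes that followed the spikes, an alternative chosen after seeing the data, 1183 genes were higher and 401 lower, with 6 p53 targets and 8 lysosomal genes higher and 13 G2 and M phase and 20 S phase genes lower.

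Of 127 named genes called, 107 stayed called with the mean of all probe sets, where Myh9 (0.21) and Sel1l (-0.47) changed sign, 111 with Gapdh centring, 116 against the nearest replicate and 127 after quantile normalization. The cause of these changes was not tested. No paired analysis was possible because no test was run and 1 array stands on one side.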
